A study of Oryza sativa Japonica Group with 8 samples.

Results

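Transcript levels in rice flag leaves sampled after flowering were set against those in flag leaves sampled before flowering, locus by locus, with the levels of the same loci in the other 6 libraries of the series. Loci entered the comparison when they spanned at least 300 bp of the genome and reached 1 FPKM in either leaf library. FPKM counts fragments scaled by the length of a locus and by the number of mapped fragments. Of 41805 loci in the deposited table, 38124 spanned at least 300 bp and 26682 of these met both conditions. Of these members, 22690 reached 1 FPKM in both leaf libraries, 1904 reached it in leaves after flowering only and 2088 in leaves before flowering only.

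All plants were japonica rice (Oryza sativa) grown in a greenhouse, with no strain, genotype, age or treatment given beyond the organ and the stage. Leaves after flowering were a mixture of stages after the flowering day. Leaves before flowering were a mixture of stages between panicle initiation and the last day before flowering. The other groups were a library labelled roots sampled after flowering, roots before flowering, flowers taken on the flowering day, flower buds, mature seeds and milk grains. Each of the 8 groups had 1 library, made from polyadenylated RNA and sequenced strand by strand, so no difference below has a replicate check. Nothing was tested, and values and counts describe these libraries alone. Because each leaf library mixed stages, neither gives the level on a particular day.

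The flag leaf is the uppermost leaf of a flowering rice shoot. It is known as a main source of sugars for the filling grain, and in the weeks after flowering it ages, dismantles its chloroplasts and exports nitrogen to the seeds. Which of the loci below take part in these processes is not known from the files, because the table pairs its identifiers with no gene names and 0 of them were found in the reference table of 39387 genes. Loci are therefore given by position on Release 7 of the MSU rice annotation, and whether a stretch is exonic, intronic or untranslated is not given. For the same reason the leaf labels could not be checked against marker genes, and they are described by likeness to the other libraries. A bulk library also cannot tell a change in RNA per cell from a change in the share of a cell type.

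The number of reads per library is not known from the files, but relative depth can be read from the shortest loci, where 72 of 72 leaf values under 60 steps lay within 0.03 of a whole multiple of the smallest value. By this measure leaves after flowering were sequenced 1.40 times as deeply as leaves before flowering. The members listed at exactly 0 FPKM numbered 176 in leaves after flowering and 273 in leaves before flowering. Across the 26682 members the leaf libraries correlated at 0.88 (Spearman), a description over loci that are not independent. The library labelled roots sampled after flowering went against its label: its Spearman correlation was 0.97 with the later leaf library and 0.89 with the earlier one, and only 236 members (0.884%) stood at least 4-fold apart between it and leaves after flowering. For roots before flowering the same values were 0.66 and 0.64. Results that use the library labelled roots are given with and without it.

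Most loci stood at similar levels in the 2 leaf libraries. The ratio was taken as log2 of (FPKM + 1) after flowering over (FPKM + 1) before flowering, a scale on which low loci appear to differ less than they do. Its median over all members was 0.048, with quartiles at -0.56 and 0.55. At least 4-fold higher after flowering were 1055 loci (3.95% of members) and at least 4-fold lower were 769 (2.88%), together 6.84%. These are called higher and lower below. At 2-fold the counts were almost even, with 3629 higher and 3653 lower. The surplus of higher loci appeared at larger differences, with 332 higher and 182 lower at 8-fold, 98 and 66 at 16-fold, and 11 and 9 at 64-fold. Many loci lay close to the 4-fold limit: 117 higher loci had log2 ratios between 2.0 and 2.1, and 144 further loci fell just short, between 1.9 and 2.0. On the lower side the corresponding numbers were 105 and 123.

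**Figure D1:**
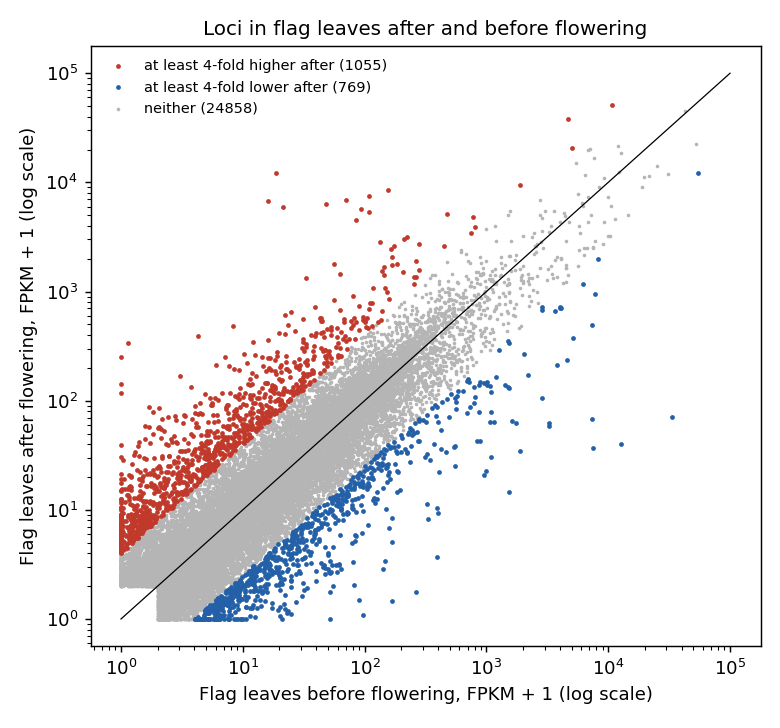
Each point is 1 of 26682 loci, with FPKM + 1 in leaves after flowering on the vertical axis and in leaves before flowering on the horizontal axis, both on log scales. The 1055 higher loci (red) lie above the line of equal values and the 769 lower loci (blue) below it, as the calls require. The added 1 FPKM keeps loci at the lowest levels from being called.

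The share of changed loci was largest among abundant transcripts. Of 486 loci with a mean of 500 FPKM or more over the 2 leaf libraries, 44 were higher and 46 lower, together 18.5%. Of 8365 loci with a mean under 5 FPKM, 225 were higher and 184 lower, together 4.89%. The 2 classes between them had 7.39% (5 to 50 FPKM) and 7.54% (50 to 500 FPKM) called. The added 1 FPKM holds down ratios most in the lowest class. Changed loci also spanned less of the genome: the median span was 2230 bp for higher loci, 1893 bp for lower loci and 3162 bp for all members.

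A few loci carried much of the difference. Higher loci held 16.2% of the FPKM sum over loci of at least 300 bp in leaves after flowering, against 1.96% in leaves before flowering. Lower loci held 1.60% of that sum after flowering, against 13.1% before flowering. The 10 loci with the largest gains made up 48.9% of the summed gain of all higher loci, and the 10 with the largest losses made up 54.5% of the summed loss of all lower loci. Among the 10 gains were those of a locus of 357 bp (51348 FPKM after and 10690 before flowering) and one of 422 bp (38260 and 4646). How the length of such short loci entered the FPKM is not given, so the share of the 10 gains is uncertain. When the 18 loci that were among the 10 highest of either leaf library were left out, higher loci still held 13.2% of the sum after flowering, against 1.22% before, and lower loci 1.21% after flowering, against 10.95% before. FPKM sums weigh transcripts equally whatever their length, so these shares are of transcripts rather than of RNA mass.

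The largest gain among higher loci of at least 500 bp was that of M_XLOC_036685 on chromosome 8 (7618172 to 7619887, minus strand). Its level was 20492 FPKM in leaves after flowering and 4999 FPKM in leaves before flowering. It was at 13881 FPKM in the library labelled roots, 1939 in roots before flowering, 4664 in flowers, 1284 in flower buds, 32.2 in mature seeds and 8473 in milk grains. The locus was thus abundant in every library but mature seeds, and its log2 ratio in leaves, 2.04, was just past the 4-fold limit.

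The next largest gain, that of P_XLOC_034372 on chromosome 7 (23746456 to 23748819, plus strand), was of another kind. The locus stood at 8463 FPKM in leaves after flowering and 153 FPKM in leaves before flowering, a log2 ratio of 5.78. The library labelled roots had 184 FPKM and roots before flowering 250. Flowers had 934 FPKM and flower buds 3301, against 67.0 in mature seeds and 68.0 in milk grains. Here the library labelled roots sampled after flowering sat with leaves before flowering, not with leaves after flowering, and the highest level outside leaves was in flower buds.

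The largest loss among lower loci of at least 500 bp was at P_XLOC_034063 on chromosome 7 (20724563 to 20726098, plus strand). This locus stood at 12298 FPKM in leaves after flowering and 54610 FPKM in leaves before flowering. Its log2 ratio of -2.15 was close to the limit, and its other levels were 12152 FPKM in the library labelled roots, 1310 in roots before flowering, 9548 in flowers, 5166 in flower buds, 813 in mature seeds and 1180 in milk grains. Leaves before flowering were therefore the single highest library.

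M_XLOC_003899 on chromosome 1 (32381051 to 32385694, minus strand) had the next largest loss and the lowest ratio of all members, -8.87 on the log2 scale. It stood at 69.9 FPKM in leaves after flowering and 33104 FPKM in leaves before flowering. The libraries split into those at 4402 FPKM or more (leaves before flowering, flowers, roots before flowering and flower buds) and those under 100 (leaves after flowering, mature seeds, milk grains and, at 63.1 FPKM, the library labelled roots).

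The levels in other organs differed between higher and lower loci. Higher loci were low in reproductive organs: their median was 1.93 FPKM in flowers, 0.836 in flower buds, 0.908 in mature seeds and 2.53 in milk grains. Medians over all members in these libraries were 11.6, 12.1, 9.15 and 11.8 FPKM, in the same order. In roots before flowering the median of higher loci was 8.93 FPKM, against 11.1 for all members. Lower loci had medians of 11.03 FPKM in flowers and 15.2 in flower buds, near those of all members, but 2.24 FPKM in mature seeds. Of higher loci 48.2% reached 1 FPKM in flower buds, against 86.2% of lower loci and 84.1% of all members. Higher loci were chosen for a low value in leaves before flowering, where their median was 3.65 FPKM, against 12.9 for all members. That library correlated at 0.75 with flower buds and 0.78 with flowers (Spearman, across all members). The call itself thus favours loci that are low in similar libraries, and these differences from all members are a description only.

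**Figure D2:**
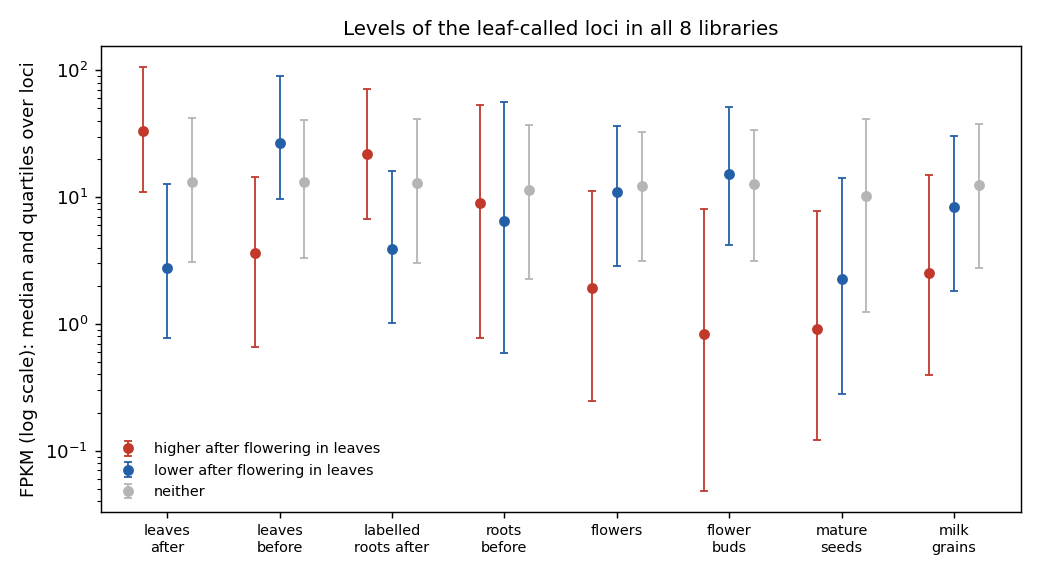
Points give the median FPKM and bars the quartiles over loci (log scale) in each of the 8 libraries, for loci called higher (red), lower (blue) or neither (grey) in leaves. Leaf values are those used for the call. In flower buds the median of higher loci was 0.836 FPKM and that of lower loci 15.2 FPKM.

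For each locus the library with the highest FPKM outside the 2 leaf libraries was then recorded. Among higher loci this was the library labelled roots for 585 of 1055 (55.5%), against 28.8% of all members. Higher loci were chosen for a high value in leaves after flowering, which that library resembled, so its larger share is a description only. Roots before flowering came next, with 284 loci (26.9%, against 17.3% of all members), and mature seeds were highest for 64 loci (6.07%, against 24.6%). Among lower loci roots before flowering were highest for 207 of 769 (26.9%), flower buds for 185 (24.1%, against 10.6% of all members) and flowers for 100 (13.0% of lower loci, against 6.04%). Mature seeds were highest for 65 lower loci (8.45%, against 24.6%), so their small share was common to higher and lower loci. Without the library labelled roots, roots before flowering were highest for 549 higher loci (52.0%, against 24.3% of all members) and flower buds for 227 lower loci (29.5%, against 15.8%). Lower loci were chosen for a high value in leaves before flowering, which correlated at 0.75 with flower buds and 0.78 with flowers. For leaves after flowering these correlations were 0.66 and 0.71. The larger shares of lower loci in flower buds and flowers are therefore a description only.

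**Figure D3:**
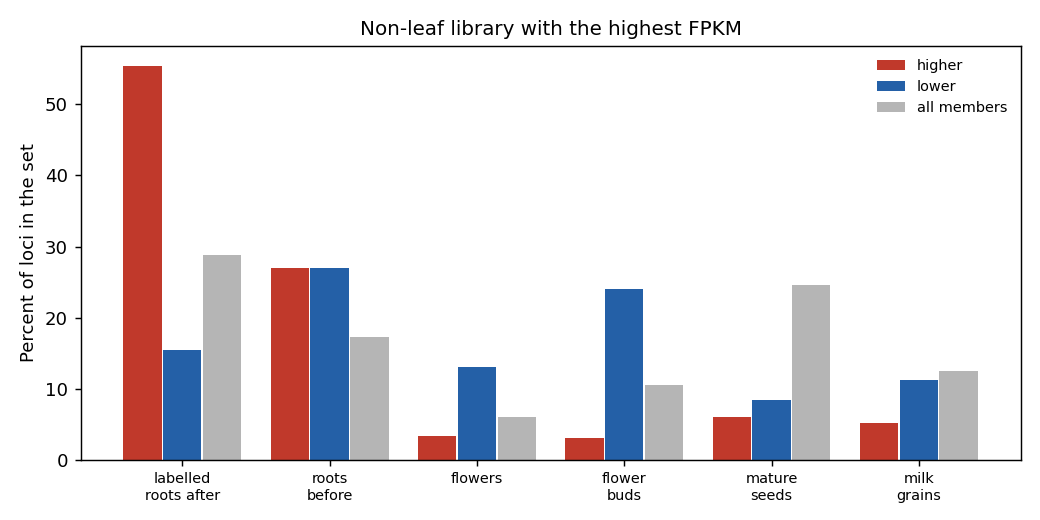
Bars give the percent of higher loci (red), lower loci (blue) and all members (grey) whose highest FPKM outside leaves was in the named library. The library labelled roots takes 55.5% of higher loci, and flower buds take 24.1% of lower loci and 3.03% of higher loci.

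The 284 higher loci that were highest in roots before flowering had medians of 31.3 FPKM in leaves after flowering, 3.33 in leaves before flowering and 79.6 in roots before flowering. The most abundant of them in leaves lay on chromosome 2 (23209639 to 23220093, plus strand), at 6274 FPKM after flowering and 47.2 before flowering. It was at most at 92.6 FPKM in any other library and stood at 9.86 FPKM in the library labelled roots, so that its level in leaves after flowering was matched nowhere else. The 185 lower loci highest in flower buds had medians of 2.55 FPKM in leaves after flowering, 25.02 in leaves before flowering and 25.1 in flower buds. The most abundant of these lay on chromosome 1 (26087572 to 26088335, minus strand), at 493 FPKM after flowering and 7415 before flowering, with 321 FPKM in flower buds and 1.04 in flowers.

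The remaining groups were smaller. Among higher loci highest in flower buds (32 loci) the most abundant was a locus of 422 bp on chromosome 2 (4871484 to 4871905, minus strand). It stood at 38260 FPKM in leaves after flowering and 4646 in leaves before flowering. Flower buds had 22123 FPKM, with roots before flowering close behind at 21145. The library labelled roots had 11576 FPKM and flowers 11125, against 7.97 in milk grains and 1.81 in mature seeds. Among the 585 higher loci highest in the library labelled roots the most abundant was a locus of 357 bp on chromosome 4 (15926564 to 15926920, plus strand). It was at 51348 FPKM in leaves after flowering and 10690 in leaves before flowering. That locus stood at 13497 FPKM in the library labelled roots and at 9.79 FPKM in roots before flowering. How the length of such short loci entered the FPKM is not given, so their levels are less certain than their ratios. Among lower loci highest in milk grains (86 loci) the most abundant lay on chromosome 3 (27134164 to 27138727, minus strand), at 67.5 FPKM after flowering and 7380 before flowering, against 37378 in milk grains. The most abundant lower locus highest in mature seeds (65 loci) lay on chromosome 8 (24464324 to 24467971, plus strand), at 723 FPKM after flowering and 4028 before flowering, against 2805 in mature seeds.

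Some called loci stood well above the other organs in leaves. Of higher loci, 364 (34.5%) stood in leaves after flowering at least 4-fold above roots before flowering, flowers, flower buds, mature seeds and milk grains alike, against 1000 of all 26682 members (3.75%). Called loci were chosen for a high value in that same leaf library, so the larger share is a description only. Medians of the 364 loci were 45.6 FPKM in leaves after flowering, 4.42 in leaves before flowering and, for the library labelled roots, 30.7. When the library labelled roots was required to be 4-fold lower as well, 17 were left (1.61% of higher loci). Of all members 20 met this condition (0.0750%), a count that includes the 17. Of lower loci, 149 (19.4%) stood in leaves before flowering at least 4-fold above the same 5 libraries, against 931 of all members (3.49%), with medians of 6.56 FPKM in leaves after flowering and 60.3 in leaves before flowering. With the library labelled roots included, 106 of them were left (13.8% of lower loci). Of all members 128 met this condition (0.480%), a count that includes the 106.

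A small set of loci was at or near 0 in 1 leaf library. At 5 FPKM or more in leaves after flowering and under 0.1 FPKM in leaves before flowering were 58 loci, 45 of them listed at 0 before flowering. Their median was 7.62 FPKM after flowering, and 56 of them reached 1 FPKM in the library labelled roots, against 26 in roots before flowering and 14 in flower buds. Of all members 91.1% reached that level in the library labelled roots, 82.3% in roots before flowering and 84.1% in flower buds. Under 1 FPKM in all 6 other libraries was 1 of the 58 loci, and without the library labelled roots 21 were. The reverse pattern was found for 30 loci, 18 of them listed at 0 after flowering, with a median of 6.76 FPKM before flowering. Of these, 3 reached 1 FPKM in the library labelled roots, 19 in roots before flowering and 18 in flower buds, all below the shares of all members. Under 1 FPKM in all 6 other libraries were 8 of the 30, and likewise 8 without the library labelled roots. The deeper library was that of leaves after flowering, so a low value before flowering is the less certain of the pair.

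The most abundant locus of the first kind lay on chromosome 7 (20210959 to 20211797, minus strand). It stood at 249.6 FPKM in leaves after flowering and was listed at 0 in leaves before flowering, roots before flowering, flowers, flower buds and milk grains, but it was at 39.8 FPKM in the library labelled roots and at 120.2 in mature seeds. A locus on chromosome 3 (7181768 to 7182284, plus strand) had 116 FPKM in leaves after flowering and listed at 0 in leaves before flowering, with 1219 FPKM in roots before flowering. Of the second kind, a locus on chromosome 7 (699844 to 700831, minus strand) had 0.0890 FPKM in leaves after flowering and 96.9 in leaves before flowering. It was at 0.367 FPKM in the library labelled roots, 65.6 in roots before flowering, 126 in flowers, 71.02 in flower buds, 2.89 in mature seeds and 185 in milk grains. Leaves after flowering were its lowest library, while leaves before flowering came below milk grains and flowers.

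Called loci were uneven along the genome. On chromosome 11, 102 of 1604 members (6.36%) were higher and 30 (1.87%) lower, and on chromosome 4 the shares were 5.43% and 3.08%. On chromosome 3, 3.03% were higher and 3.15% lower, and on chromosome 2 the shares were 2.70% and 2.66%. The next member along the chromosome was also higher for 176 of 1054 higher loci (16.7%), against 3.96% of all members. It was lower for 9 (0.854%, against 2.88%). For lower loci the next member was also lower for 65 of 769 (8.45%), against 2.88% of all members, and higher for 14 (1.82%, against 3.96%). Next members could overlap the locus on the opposite strand. Among neighbours on the same strand the shares with the same call were 15.7% and 7.81%. When the genome was divided into windows of 200 kb, 1854 windows held a member, 824 of these held no called locus, 18 held at least 5 higher loci and 2 held at least 5 lower loci.

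The window with the most higher loci lay near the start of chromosome 1, where 9 of 40 members were higher, spanning 839386 to 980699. They stood between 28.3 and 154.8 FPKM in leaves after flowering and between 2.81 and 19.8 FPKM in leaves before flowering, with log2 ratios between 2.13 and 3.33. Outside leaves and the library labelled roots, where they stood between 19.8 and 133 FPKM, they were almost silent: none exceeded 4.59 FPKM in roots before flowering, 1.59 in flowers, 0.857 in flower buds, 0.741 in mature seeds or 2.26 in milk grains. The first 5 of them lay within 839386 to 865960, on alternating strands. The other 31 members of the window had a median log2 ratio of 0.79, and 14 of them were at least 2-fold higher.

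On chromosome 9, 8 of 21 members of a window were higher, spanning 13919744 to 13974649. These loci stood between 3.55 and 90.5 FPKM in leaves after flowering and between 0.0532 and 4.43 FPKM in leaves before flowering. In the library labelled roots they stood between 1.19 and 52.4 FPKM. They were listed at 0 in flower buds without exception, and at most at 0.0627 FPKM in flowers, 0.265 in milk grains, 1.39 in mature seeds and 2.34 in roots before flowering. Of the 8, 7 lay on the plus strand. Of the other 13 members of the window 2 were at least 2-fold higher, with a median log2 ratio of 0.52. The locus with the largest ratio among them (13931962 to 13933112, plus strand) was at 55.02 FPKM in leaves after flowering and 1.03 in leaves before flowering. Neighbouring loci of a gene family can share reads, and how the authors' counting split such reads is not given, so the levels of these adjacent loci may not be independent.

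Lower loci gathered less, and those in 1 window were not alike. On chromosome 2, 5 of 17 members were lower, spanning 27621205 to 27660192, and 0 of the other 12 were at least 2-fold lower (median log2 ratio -0.20). The locus at 27621205 to 27623470 (plus strand) stood at 0.351 FPKM in leaves after flowering and 7.98 in leaves before flowering but at 566 in roots before flowering. The locus at 27658648 to 27660192 (minus strand) had 47.6 FPKM in leaves after flowering, 244 FPKM in leaves before flowering and 0.428 FPKM in roots before flowering. Another of the 5 (27659263 to 27659599, plus strand) lay inside it, at 5.62% of its level in leaves before flowering. The window reached 5 lower loci only with this nested locus, and whether wrong-strand reads contributed to it was not tested. On chromosome 5, 5 of 25 members were lower, spanning 28051693 to 28194025, and 4 of the other 20 were at least 2-fold lower (median 0.012). The first of these (28051693 to 28052945, plus strand) was at 1.59 FPKM in leaves after flowering and 46.1 in leaves before flowering, and at 2165 FPKM in flower buds.

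**Figure D4:**
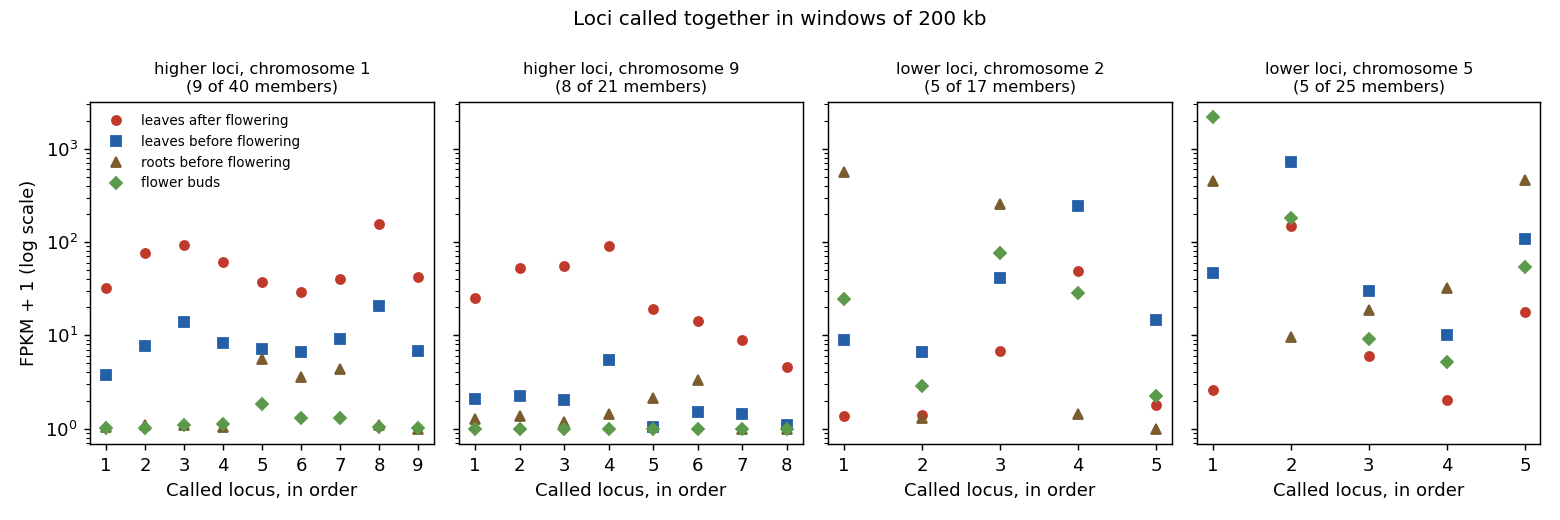
Each panel shows the called loci of 1 window of 200 kb in order along the chromosome, with FPKM + 1 (log scale) in leaves after flowering, leaves before flowering, roots before flowering and flower buds. In the windows on chromosomes 1 and 9 the called loci are near 0 in flower buds, while those on chromosomes 2 and 5 include loci at up to 566 FPKM in roots before flowering and 2165 FPKM in flower buds.

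Overlap with a locus on the opposite strand was somewhat more frequent among higher loci. Of 1055 higher loci, 260 (24.6%) overlapped a member on the other strand by at least 1 bp, against 19.9% of lower loci and 19.8% of all members. The partner was also higher for 57 of those 260 (21.9%), while it was higher for 5.93% of all members with a partner. For the 153 lower loci with a partner, the partner was also lower for 8 (5.23%), against 3.25% of all members with one. Of 3085 overlapping pairs, 34 had the same call on both loci, 30 of them higher, and in 1 pair the calls were opposite. A locus could enter more than 1 pair, so the pairs are not all separate.

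That single pair with opposite calls lay on chromosome 6. The plus-strand locus (1383618 to 1386322) was at 303 FPKM in leaves after flowering and 61.3 in leaves before flowering, and the minus-strand locus (1384581 to 1385556) was at 41.2 FPKM after flowering and 174 before flowering. In the 34 pairs with the same call the weaker partner had a median of 19.1% of the level of the stronger one, taken in the library where each was higher, and in 8 pairs it had less than 5%. The weakest stood at 0.564%, on chromosome 6 (22558003 to 22558641, minus strand), at 29.0 FPKM after flowering and 0.539 before flowering, beside a plus-strand partner at 5143 and 474 FPKM. Whether reads assigned to the wrong strand contributed to such low partners was not tested.

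The same loci were followed through the other 3 pairs of stages, none of which shares a library with the leaf pair. In flowers against flower buds, 78 of 1055 leaf-higher loci (7.39%) were at least 4-fold higher, against 1.56% of all members, and 23 (2.18%) were lower, against 1.20%. Of 769 leaf-lower loci, 30 (3.90%) were higher in flowers and 62 (8.06%) lower. Most leaf-called loci were thus neither higher nor lower in this pair.

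In mature seeds against milk grains, 81 leaf-higher loci (7.68%) were at least 4-fold higher, a share near the 7.08% of all members, and 183 (17.3%) were lower, against 13.1%. Leaf-lower loci were lower in mature seeds for 232 of 769 (30.2%) and higher for 56 (7.28%). Their medians were 2.24 FPKM in mature seeds and 8.38 FPKM in milk grains.

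In the library labelled roots after flowering against roots before flowering, 397 leaf-higher loci (37.6%) were at least 4-fold higher, against 12.7% of all members, and 146 (13.8%) were lower, against 10.5%. Of leaf-lower loci, 241 (31.3%) were lower and 145 (18.9%) higher. Since the later library of this pair resembled leaves after flowering, these counts set a leaf-like library against roots, and no direction across flowering in roots is drawn from them. Beside the leaf values, leaf-higher loci had medians of 33.5 FPKM in leaves after flowering, 3.65 in leaves before flowering, 21.7 in the library labelled roots and 8.93 in roots before flowering. Leaf-lower loci had medians of 2.76, 26.5, 3.90 and 6.50 FPKM in the same order. The library labelled roots therefore lay nearer to leaves after flowering in both sets.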

How the data were processed

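Strand-specific single-end libraries were made from polyadenylated RNA by a stranded Illumina protocol and read for 100 cycles, per the labels' protocols. Per the submitters' processing notes the tools included TopHat, Cufflinks and Cuffdiff, with no version or setting named. The authors deposited FPKM values, with positions on Release 7 of the MSU rice annotation per the file headers. All 8 deposited columns matched a sample title.

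From these values log2((after + 1)/(before + 1)) was computed for loci of at least 300 bp and at least 1 FPKM in either leaf library, and 4-fold differences were counted, with Python 3.11.15, pandas 2.3.3 and NumPy 2.4.6. Samples were grouped by their source labels, 1 library each. The 2 strands may carry different scales: the median log2 ratio was 0.094 for plus-strand loci and -0.002 for minus-strand loci. The call routine was checked on simulated data. Identifiers were printed for the 2 largest gains and 2 largest losses in FPKM among called loci of at least 500 bp, and other loci by position: those in the windows with the most higher or lower loci, the most abundant of each group by other library, and a few chosen after their values were seen. Members, lists and rules were chosen with earlier results of these data known. Other pseudocounts, filters, length limits, fold limits, scalings, windows and overlaps were tried.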

Additional observations from a re-analysis of the deposited data

Results flagged for a closer look

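Some loci stood on opposite sides in the leaf pair and in the root-labelled pair, each later library being set against its earlier one. A set of 145 loci was at least 4-fold lower in leaves but higher by that factor in the library labelled roots. These were 18.9% of leaf-lower loci, while 12.7% of all members were higher in the root-labelled pair. Their medians were 13.8 FPKM in leaves after flowering, 90.7 in leaves before flowering, 23.9 in the library labelled roots and 0.574 in roots before flowering. The reverse held for 146 loci, with medians of 24.6, 2.52, 13.6 and 182.9 FPKM in the same order. These were 13.8% of leaf-higher loci, while 10.5% of all members were lower in the root-labelled pair. Of the 2 leaf libraries, leaves after flowering lay nearer to the library labelled roots for 113 of the 145 loci and 114 of the 146. Over all lower loci the same held for 689 of 769 (89.6%), and over all higher loci for 920 of 1055 (87.2%). Since the library labelled roots resembled leaves after flowering, these counts too set a leaf-like library against roots. With 1 library in each of these 4 groups, the difference was not tested, and no stage difference between leaves and roots is drawn from it.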

How the results depend on the processing

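No paired analysis was possible because each group had 1 library, which also leaves no replicate to leave out. With a pseudocount of 0.1 FPKM, 7.29% of compared loci were higher and 6.36% lower, and with equal sums (each library divided to a sum of 1000000, with the pseudocount and filter kept at 1) 2.55% were higher. At a 2-fold limit 13.6% were higher and 13.7% lower, and at 16-fold 0.367% and 0.247%, as the limit itself dictates. Higher loci made up 57.8% of changed loci, and between 49.8% (2-fold) and 59.8% (16-fold) under the alternatives. The surplus of higher loci also shrank with scaling, to 960 higher and 834 lower (53.5%) after median-ratio rescaling. The share was 53.4% with a pseudocount of 0.1, 54.8% with each strand centred at 0 and 55.3% with equal sums. The median of all members, 0.048, was -0.024 after median-ratio rescaling and -0.028 with equal sums, so it has no stable sign. Without the library labelled roots, 52.0% of higher loci were highest in roots before flowering, and with equal sums 37.4% of lower loci were highest in flower buds. Windows with at least 5 higher loci numbered 37 at 400 kb and 198 at 2-fold, and those with at least 5 lower loci numbered 1 at 100 kb, 7 at 400 kb and 169 at 2-fold. At 2-fold the next member had the same call for 26.9% of higher and 21.3% of lower loci. Loci listed at 0 in 1 leaf library and at 1 FPKM or more in the other numbered 273 seen after flowering and 176 seen before, and with 10 FPKM required of loci under 0.1 FPKM they numbered 19 and 6. With a pseudocount of 0.1, 20.3% of all members were higher in the library labelled roots than in roots before flowering. In flowers against flower buds 13.5% of leaf-higher loci and 3.65% of all members were then higher, and 2.66% of all members lower. In mature seeds against milk grains 12.5% of leaf-higher loci were then higher and 21.2% of all members lower, while with equal sums 4.24% of leaf-higher loci and 2.39% of all members were higher. Of 121 alternative values the others stayed within 1.5 times (10 points for the share of changed loci, 0.1 for medians). Low loci are limited by depth, which was lower before flowering.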
